A study of Homo sapiens with 4 samples.

Results

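The genes described here are 10 transcripts of the ATF4 and CHOP stress response, measured in MOLM-14 cells with and without rapamycin. ATF4, ATF3, ATF5, DDIT3 (which encodes CHOP), DDIT4, TRIB3, CHAC1, ASNS, SESN2 and PPP1R15A were taken by symbol, through the Entrez gene number of each probe set, as ATF4 and stress genes downstream of it other than transporters. All 10 were found, each with 1 probe set, and all 10 passed the filter on low signal, as 10 of the 14635 genes tested. MOLM-14 cells come from a human acute myeloid leukemia and carry an activating FLT3 duplication and a KMT2A (MLL) fusion. Control cells, given no rapamycin, were measured on 2 arrays, and cells given 10 nM rapamycin for 24 hours on 2 arrays. The labels' growth and treatment protocols describe MOLM-14 cells that carry a doxycycline-inducible hairpin, scrambled or against Pim2, kept for 72 hours with 200 ng/ml doxycycline. The series design names rapamycin alone, so whether all 4 arrays share the hairpin and doxycycline was not tested. PIM2, the target of that hairpin, read 8.03 and 8.07 log2 units on the control arrays against 8.26 and 8.32 on the rapamycin arrays (log2 fold change 0.24, limma adjusted p = 0.233).

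When the translation factor eIF2 is phosphorylated by one of its stress kinases, bulk protein synthesis slows while the ATF4 mRNA is translated more, so that ATF4 protein can rise without a rise in its mRNA. ATF4 then switches on genes for amino acid supply, for redox control and for recovery of translation, and it induces CHOP, which can turn a prolonged stress response toward cell death. In other cell types mTORC1, the kinase complex that rapamycin blocks, is known to raise ATF4 output as part of growth signalling, without eIF2 phosphorylation. The arrays read RNA, and neither ATF4 protein nor eIF2 phosphorylation was measured here.

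The 4 arrays had medians between 5.38 and 5.45 log2 units. Of 7 myeloid markers on the array 6 passed the filter, with means from 6.62 (MPO) to 11.81 (LYZ) log2 units and FLT3 at 10.65. CD14 did not (3.80). Of 13 markers of T cells, B cells, red cells, epithelium and fibroblasts, 5 passed, and the T cell markers CD3D, CD3E and CD2 did not. The 5 were PAX5 (7.10), HBA1 (6.90), COL1A1 (6.46), KRT19 (5.88) and COL3A1 (4.98). In such bulk RNA, fewer cells that express a gene and less RNA per cell cannot be told apart.

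Of the 10 stress genes 3 fell with rapamycin and none rose. DDIT3, the CHOP transcription factor, was 1.83-fold lower, PPP1R15A, which ends the eIF2 signal, was 1.73-fold lower, and DDIT4, an inhibitor of mTORC1, was 1.47-fold lower. Calls were made at an adjusted p under 0.05 in limma's moderated linear model over all genes, where 1.28% of genes tested were called, 0.861% as lower and 0.417% as higher. The other 7 genes did not pass, and ATF4 itself differed by -0.08 on the log2 scale. The median log2 fold change of the 10 was -0.31, beside 0.01 over all genes tested, and 9 of the 10 lay below 0, beside 46.8% of all genes. In 7 of the 10 both rapamycin arrays lay below both controls, which was so for 21.8% of all genes tested.

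**Figure D1:**
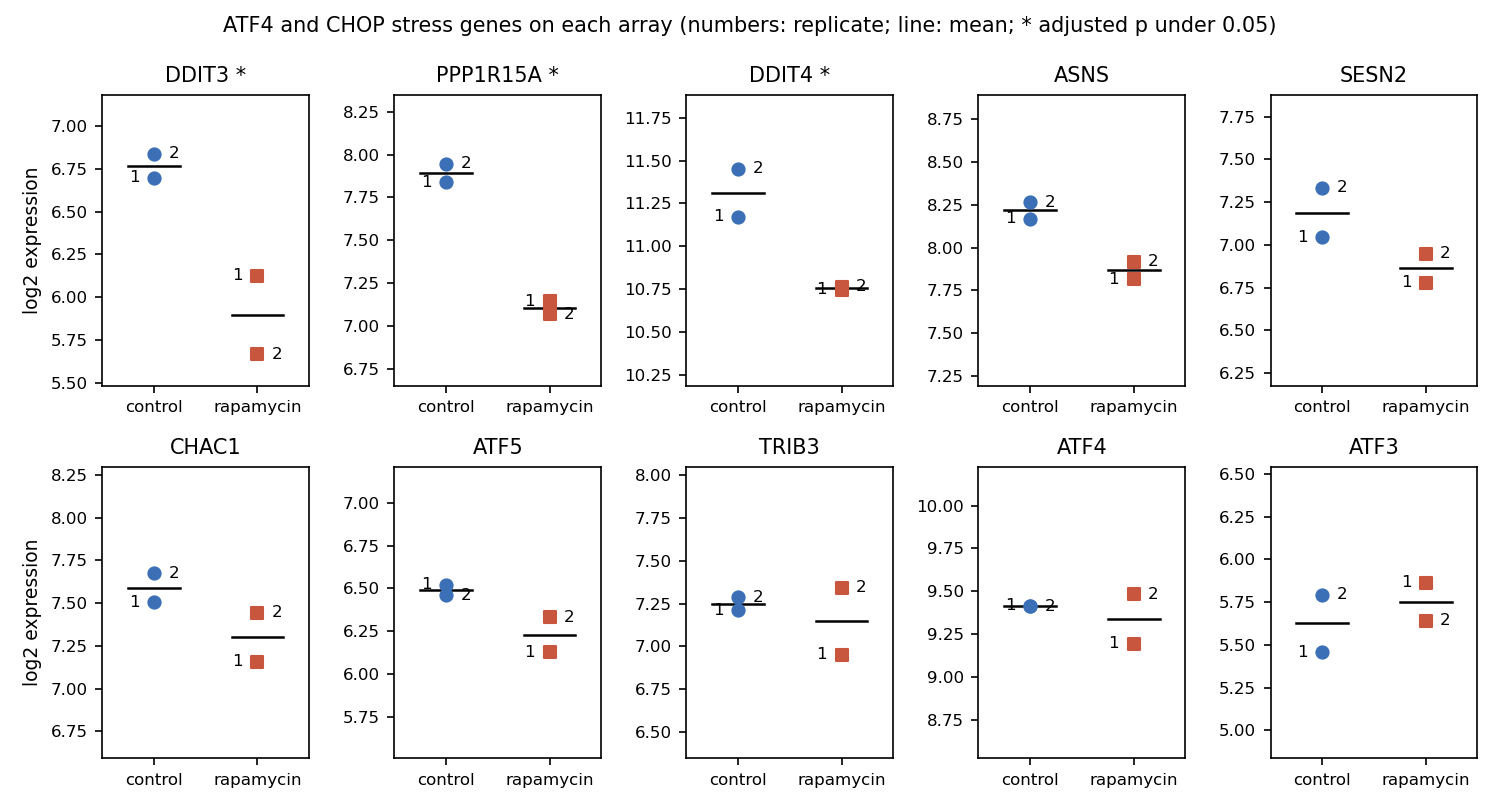
Log2 expression of the 10 stress genes on each array, controls as circles and rapamycin as squares, with the replicate number beside each point, a line at the group mean and an asterisk where the adjusted p is under 0.05. Every panel spans the same height in log2 units; the groups are apart in DDIT3, PPP1R15A, DDIT4, ASNS, SESN2, CHAC1 and ATF5 and overlap in TRIB3, ATF4 and ATF3.

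PPP1R15A encodes GADD34, the stress-induced subunit that brings protein phosphatase 1 to eIF2 and so restores translation after ATF4 has acted. Control signals were 7.84 and 7.95 log2 units, and rapamycin signals 7.14 and 7.07. The groups lay apart by far more than the arrays of either group did. The log2 fold change was -0.79 (SE 0.10, 95% interval -1.01 to -0.57), with group values of 7.89 ± 0.08 and 7.10 ± 0.05 (SD, n = 2) and a limma adjusted p of 0.00827. It had the smallest adjusted p of the 10 genes, and it passed without each of the 4 arrays in turn, at log2 fold changes from -0.84 to -0.73. Only without the mean-variance trend did it miss the threshold, among the 13 alternative settings run (adjusted p = 0.0556).

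DDIT3, which pairs with C/EBP proteins and acts on genes of cell death and of secretory load, read 6.70 and 6.84 log2 units in the controls. With rapamycin it read 6.12 and 5.67. Both rapamycin arrays lay below both controls, and they differed from each other by 0.46, the largest gap between the rapamycin arrays among the 10 genes. The group values were 6.77 ± 0.10 and 5.90 ± 0.32 (SD, n = 2), and the log2 fold change was -0.87 (SE 0.16, 95% interval -1.23 to -0.51, limma adjusted p = 0.0391). Without rapamycin replicate 2, the lower of the pair, it was -0.64 (adjusted p = 0.0416), and without control replicate 2 it was -0.80 and no longer passed (adjusted p = 0.074).

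DDIT4 encodes REDD1, which restrains mTORC1 through the TSC complex and is also induced by low oxygen and by glucocorticoids. The control arrays gave 11.17 and 11.45 log2 units and the rapamycin arrays 10.74 and 10.76, so the controls were farther apart than the rapamycin arrays. The log2 fold change was -0.56 (SE 0.09, 95% interval -0.76 to -0.36, limma adjusted p = 0.0244). Without control replicate 2, the higher control, the value was -0.42 and did not pass (adjusted p = 0.105). DDIT3 and DDIT4 also missed the threshold with no filter on low signal (adjusted p = 0.0988 and 0.0727) and without the mean-variance trend (adjusted p = 0.127 and 0.16). The intervals of DDIT3, PPP1R15A and DDIT4 overlap, and differences between the 3 falls were not tested.

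The starts of these 3 genes are shown because they are the members that fell. Each sequence is the 250 bases before a transcription start in RefSeq, GRCh38.p14, 5′ to 3′ on the strand of the gene. Capitals mark matches to short motifs, searched on both strands: the composite C/EBP-ATF element TGATGNAA that ATF4 binds with C/EBP partners, the cyclic AMP response element TGACGTCA, the AP-1 element TGANTCA and, in DDIT4 alone, the hypoxia-factor core ACGTG. The windows lie at chr19:48872171-48872420 (PPP1R15A, plus strand), chr12:57520518-57520767 (DDIT3, minus strand) and chr10:72273674-72273923 (DDIT4, plus strand).
PPP1R15A: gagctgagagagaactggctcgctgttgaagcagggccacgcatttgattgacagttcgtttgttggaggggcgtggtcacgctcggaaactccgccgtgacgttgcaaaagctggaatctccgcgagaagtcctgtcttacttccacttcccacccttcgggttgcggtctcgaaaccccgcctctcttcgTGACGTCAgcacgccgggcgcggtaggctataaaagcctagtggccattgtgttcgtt
DDIT3: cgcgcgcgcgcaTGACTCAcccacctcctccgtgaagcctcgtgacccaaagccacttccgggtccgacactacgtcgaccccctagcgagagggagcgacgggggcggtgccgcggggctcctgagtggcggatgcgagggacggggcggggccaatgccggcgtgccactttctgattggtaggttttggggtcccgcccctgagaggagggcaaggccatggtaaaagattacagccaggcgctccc
DDIT4: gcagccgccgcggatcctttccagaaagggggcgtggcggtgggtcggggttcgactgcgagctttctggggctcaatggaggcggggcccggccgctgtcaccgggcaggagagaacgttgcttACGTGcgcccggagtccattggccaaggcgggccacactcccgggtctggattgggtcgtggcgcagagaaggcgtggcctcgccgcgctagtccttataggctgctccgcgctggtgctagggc
In this window PPP1R15A held TGACGTCA, 58 to 51 bases before the start, a motif found in 2.03% of the 27305 genes with such windows. DDIT3 held TGACTCA, 238 to 232 bases before the start, a form of the AP-1 element, which 8.06% of genes hold. DDIT4 held ACGTG, 125 to 121 bases before the start, as did 21.7% of genes. Members that were not called held these motifs too, ATF5 the AP-1 element and ATF4 ACGTG. The composite element matched in none of these 3 windows, and sequence outside the 250 bases was not searched. A match describes letters in a window and not a bound site, and the motifs were chosen with the fall of these genes known.

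ASNS, CHAC1 and ATF5 carry out or direct work that ATF4 is known for. ASNS, which makes asparagine from aspartate and glutamine, had control signals of 8.17 and 8.27 log2 units and rapamycin signals of 7.82 and 7.92. The arrays within each group were about equally far apart, and the log2 fold change was -0.35 (SE 0.09, 95% interval -0.56 to -0.14), which did not pass (limma adjusted p = 0.113). CHAC1, which breaks down glutathione, read 7.51 and 7.67 in the controls and 7.16 and 7.44 with rapamycin (log2 fold change -0.29, SE 0.12, limma adjusted p = 0.296). The higher rapamycin array of CHAC1 lay just under the lower control. ATF5, a bZIP factor whose mRNA is translated under stress in the way of ATF4, read 6.52 and 6.46 against 6.13 and 6.33 (log2 fold change -0.26, SE 0.12, limma adjusted p = 0.357). In each of these 3 genes both rapamycin arrays lay below both controls, as in 21.8% of all genes tested. None of the 3 passed under any of the 13 alternative settings.

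The composite element TGATGNAA, found in 3.89% of genes, matched in the windows of ASNS, CHAC1 and ATF3, 3 of the 10 genes. Whether the other genes, DDIT3 among them, hold it outside their windows of 250 bases was not examined. The stretches around the ASNS and CHAC1 matches are shown because they hold the element that ATF4 is known to bind. They are 40 bases long, on the strand of the gene, from chr7:97872453-97872492 (ASNS, minus strand) and chr15:40953246-40953285 (CHAC1, plus strand), with the match in capitals, which in CHAC1 reads on the opposite strand.
ASNS: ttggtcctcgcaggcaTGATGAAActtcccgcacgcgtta
CHAC1: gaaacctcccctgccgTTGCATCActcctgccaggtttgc
In both genes the rapamycin arrays lay below the controls without passing the test, whereas the groups of ATF3 overlapped.

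SESN2 and TRIB3 act on growth signalling. SESN2, a stress-induced inhibitor of mTORC1 that binds the GATOR2 complex, gave 7.04 and 7.33 log2 units without rapamycin and 6.78 and 6.95 with it. Its groups did not overlap, yet the controls differed from each other by 0.29, and the log2 fold change of -0.33 (SE 0.13) did not pass (limma adjusted p = 0.264). TRIB3, a pseudokinase that binds ATF4 and AKT, read 7.21 and 7.29 in the controls and 6.95 and 7.34 with rapamycin. One rapamycin array of TRIB3 lay below both controls and the other above both, and its log2 fold change was -0.10 (SE 0.14, 95% interval -0.41 to 0.20, limma adjusted p = 0.775).

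ATF4 mRNA stood at 9.42 and 9.41 log2 units on the control arrays, and at 9.19 and 9.48 on the rapamycin arrays. As in TRIB3, rapamycin replicate 1 lay below both controls and replicate 2 above both. The log2 fold change was -0.08 (SE 0.10, limma adjusted p = 0.77), and its 95% interval of -0.30 to 0.15 holds neither a fall nor a rise of the size seen in PPP1R15A. ATF3, a bZIP factor induced by many stresses, read 5.46 and 5.79 in the controls and 5.86 and 5.64 with rapamycin, with the groups overlapping (log2 fold change 0.13, SE 0.16, limma adjusted p = 0.756). The 95% interval of ATF3 ran from -0.22 to 0.48.

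**Figure D2:**
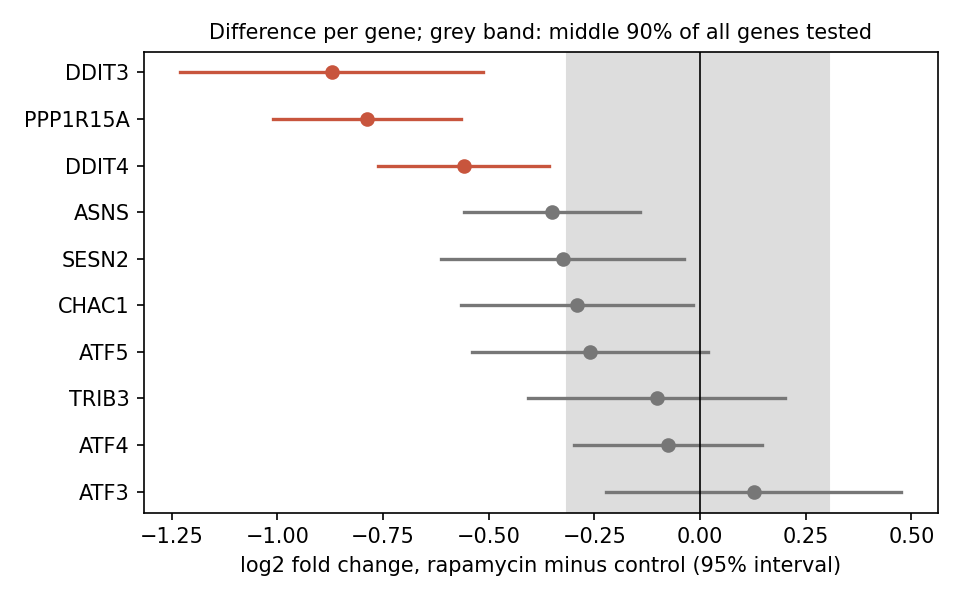
Log2 fold change of each stress gene, rapamycin minus control, with its 95% interval from the moderated fit; red marks an adjusted p under 0.05 and the grey band runs from the 5th to the 95th percentile of all genes tested (-0.31 to 0.30). DDIT3, PPP1R15A and DDIT4 have whole intervals below the band, from -1.23 at the lowest bound to -0.36 at the highest.

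The rapamycin arrays differed from each other in these genes. Replicate 1 lay below replicate 2 in 7 of the 10, beside 48.3% of all genes tested, by 0.39 in TRIB3, 0.29 in ATF4, 0.28 in CHAC1, 0.21 in ATF5, 0.17 in SESN2, 0.10 in ASNS and 0.02 in DDIT4. DDIT3, ATF3 and PPP1R15A were lower on replicate 2. The 2 arrays therefore order ATF4 and DDIT3 in opposite ways. Leaving out rapamycin replicate 1 turned the sign of ATF4 (to 0.07) and of TRIB3 (to 0.09), neither of which passed, and leaving out control replicate 1 turned the sign of ATF3 (to -0.04). Without control replicate 2 the log2 fold change was -0.80 for DDIT3 and -0.42 for DDIT4, neither of which passed, and -0.73 for PPP1R15A. With 1 array left in a group, that array is assumed to vary like those of the other group.

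**Figure D3:**
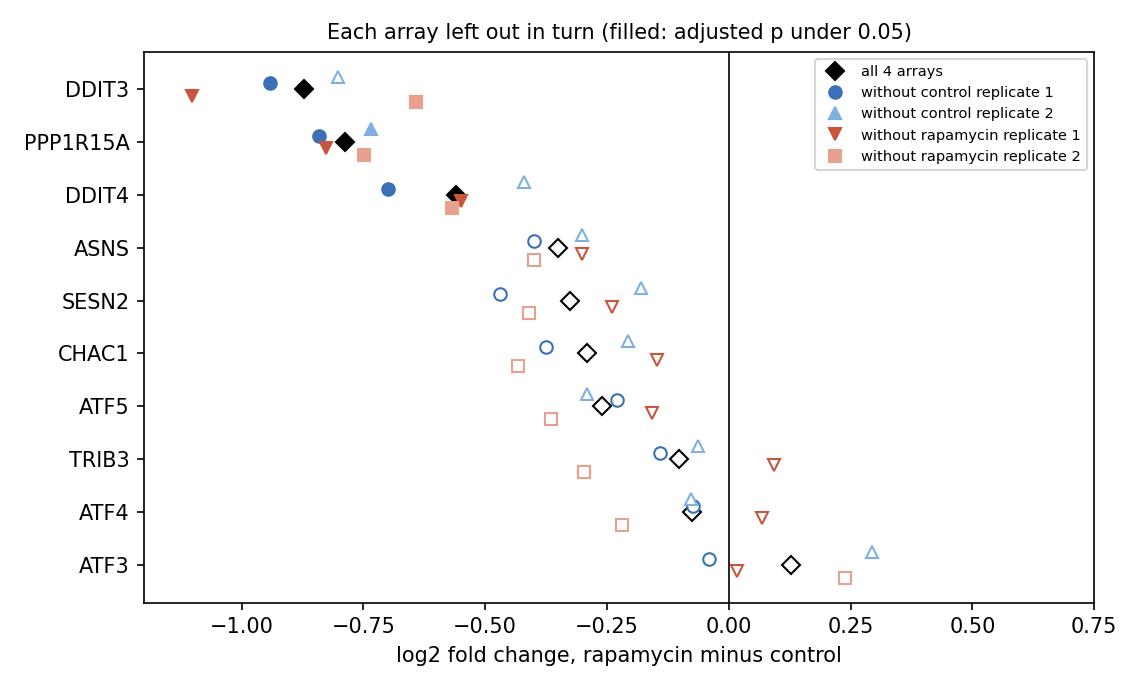
Log2 fold change of each stress gene with all 4 arrays and with each array left out in turn, filled where the adjusted p is under 0.05. PPP1R15A is filled throughout, DDIT3 and DDIT4 are open without control replicate 2, and ATF4, TRIB3 and ATF3 have points on both sides of 0.

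The list of eIF2 kinases and eIF2 control had a median log2 fold change of 0.04 over 17 genes tested. None was called, near the share of 1.28% over all genes. These are the eIF2 kinases, the subunits of eIF2 and of its exchange factor eIF2B, and regulators of both. EIF2AK3 (PERK), the kinase of endoplasmic reticulum stress, had a value of -0.33 (limma adjusted p = 0.161) and EIF2AK4 (GCN2), the kinase of amino acid shortage, of 0.07. DNAJC3, an endoplasmic reticulum co-chaperone that also inhibits eIF2 kinases, had the largest difference, -0.45 (limma adjusted p = 0.0585), and EIF2B2 had -0.24. PPP1R15B, the constitutive relative of PPP1R15A with the same phosphatase partner, had a log2 fold change of -0.04 (limma adjusted p = 0.865). The difference between the relatives was not tested. Without rapamycin replicate 1 the log2 fold change was -0.42 for EIF2AK3 and -0.57 for DNAJC3.

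Among 18 tested bZIP proteins that can pair with ATF4, CHOP or ATF3, 1 rose and none fell, with a median log2 fold change of 0.01. Over all genes tested 0.417% were called as higher and 0.861% as lower. The gene that rose was JUND, an AP-1 subunit, with control signals of 9.10 and 9.06 log2 units and rapamycin signals of 9.59 and 9.83 (1.55-fold higher, limma adjusted p = 0.0154). The C/EBP partners CEBPB (-0.09) and CEBPG (0.19) did not pass, nor did JUN (-0.45) or BATF2 (-0.43). Without rapamycin replicate 1 the log2 fold change was 0.76 for JUND, -0.69 for JUN and -0.64 for BATF2. Of 6 tested family relatives of the 10 genes none was called (median -0.01), beside 1.28% of all genes. SESN1, a sestrin under p53 and FOXO control, had -0.42 (limma adjusted p = 0.0754), TRIB1 had 0.21 and CREB1 had -0.17. With rapamycin replicate 1 left out, SESN1 stood at -0.55, TRIB1 at 0.16 and CREB1 at -0.32.

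Other genes that ATF4 is known to drive were read from lists of transporters and of enzymes, beside a share of 0.861% of all genes tested called as lower. Of 10 amino acid transporters 1 fell, the cystine carrier SLC7A11 (log2 fold change -0.44, limma adjusted p = 0.0381), and the list median was 0.05. The glycine transporter SLC6A9 (-0.53, limma adjusted p = 0.0676) and SLC3A2, the heavy chain shared by several carriers (-0.29), did not pass. Of 19 tested enzymes and secreted factors 1 fell, the mitochondrial folate enzyme ALDH1L2 (-0.46, limma adjusted p = 0.0264), and the median was -0.21. CTH, of cysteine synthesis, stood at -0.51 and the secreted stress cytokine GDF15 at -0.39, neither past the test. Both rapamycin arrays lay below both controls in 12 of these 19 and in 3 of the 10 transporters, again beside 21.8% of all genes tested. Without control replicate 1 or control replicate 2 neither list had a call (SLC7A11 adjusted p = 0.156 and 0.303, ALDH1L2 0.074 and 0.254). Without rapamycin replicate 1 the log2 fold change was -0.42 for SLC6A9 and -0.70 for CTH. Without rapamycin replicate 2 it was -0.64 for SLC6A9 and -0.33 for CTH.

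Genes tied to CHOP itself, 8 tested, gave no call, beside 1.28% of all genes, and a median of -0.05. GADD45A, a growth arrest protein, had a log2 fold change of -0.39 (limma adjusted p = 0.0753), BCL2, a survival protein that CHOP is known to repress, of 0.26 and the oxidase ERO1B of -0.17. The ATF6 and XBP1 arm of the unfolded protein response, which shares its trigger with the PERK branch, had 2 genes that fell and 1 that rose among 20, with a median of -0.21, where 0.861% of all genes tested were called as lower and 0.417% as higher. HSPA5 (BiP), the chief endoplasmic reticulum chaperone, fell by 0.65 on the log2 scale (limma adjusted p = 0.00456), EDEM1, which clears misfolded glycoproteins, fell by 0.44, and XBP1 rose by 0.44. Both rapamycin arrays lay below both controls in 15 of the 20, beside 21.8% of all genes tested. Without control replicate 2 XBP1 (0.43) and EDEM1 (-0.42) no longer passed, nor did EDEM1 without control replicate 1 (-0.47). With rapamycin replicate 1 left out, HSPA5 stood at -0.70, XBP1 at 0.50 and EDEM1 at -0.47. Among the CHOP genes GADD45A stood at -0.47 without rapamycin replicate 1 and BCL2 at 0.34 without rapamycin replicate 2.

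**Figure D4:**
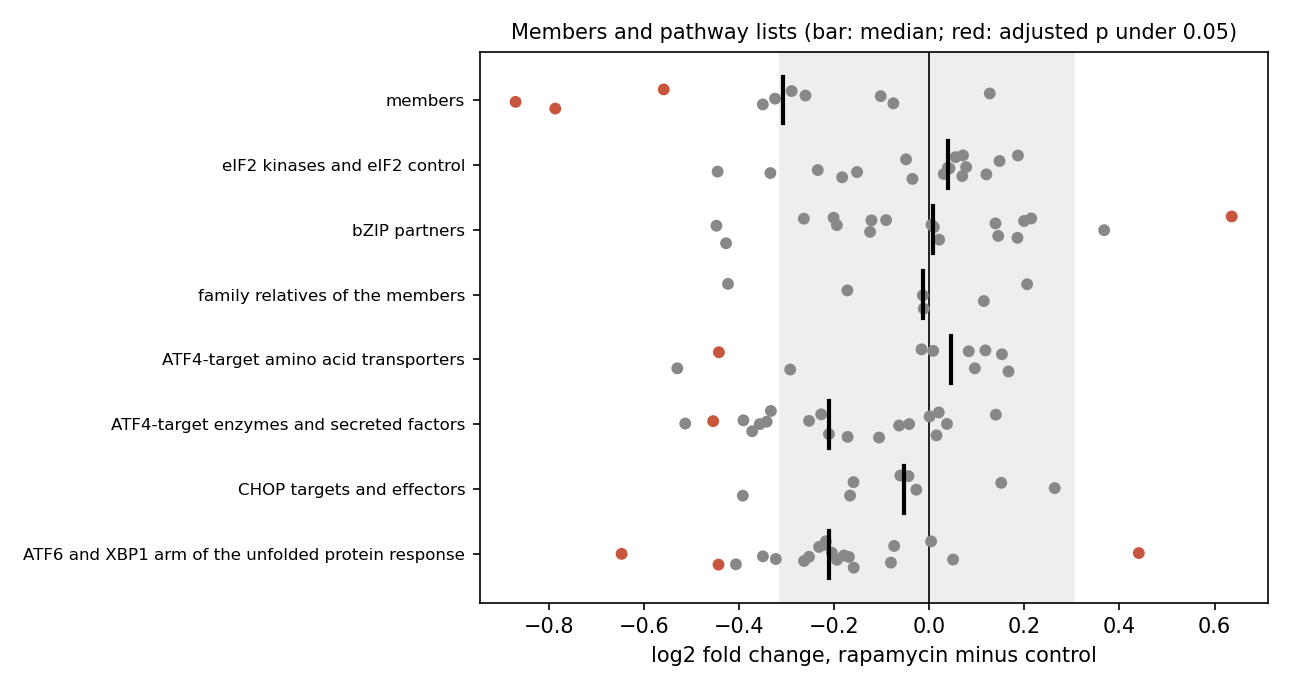
Log2 fold change of every tested gene of the 10 stress genes (members) and of 7 pathway lists, each point a gene, red where the adjusted p is under 0.05, with a bar at the list median and a grey band from the 5th to the 95th percentile of all genes. The median of the stress genes lies at -0.31, that of the enzymes and of the ATF6 and XBP1 arm at -0.21, and that of the transporters at 0.05.

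The genes nearest to each of the 3 that fell were found by Euclidean distance between log2 values centred on each gene's own mean, over the 4 arrays. PPP1R15A was followed most closely by FABP3, a fatty acid carrier (distance 0.03), by INSIG1, the sterol-regulated anchor of SREBP (0.03), and by CAP2 (0.07). Nearest to DDIT4 were BTN3A1 (0.03), BCL2A1 (0.06) and ZNF425 (0.07). DDIT3 lay near CPEB4, which controls polyadenylation of mRNAs in the cytoplasm (0.08), ZCCHC2 (0.10) and the ubiquitin ligase MYLIP (0.10). Each of these 9 genes was lower on both rapamycin arrays, by 0.52 to 0.83 on the log2 scale, which follows from how they were chosen. CPEB4, BCL2A1 and ZNF425 did not pass the test (limma adjusted p = 0.0544, 0.0874 and 0.131). Over 4 arrays such a distance describes likeness only.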

How the data were processed

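Gene expression was measured on 4 single-channel arrays of MOLM-14 cells, 2 control and 2 rapamycin. The authors deposited a log2 expression value for each probe set on each array, ranging from 1.81 to 13.3. Per the submitters' processing notes RMA and Partek were used, in roles and versions not stated there. The genome build is not given in the sources used here, and the number of arrays limits the precision.

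Probe sets were named through Entrez gene numbers: 24244 of 25582 had 1 symbol and 1338 had none. Probe sets with a mean under the 40th percentile (4.86 log2 units) were left out, which kept 14635 named genes. Groups came from the labels, and replicates are called biological there, with nothing more on separate cultures, so p-values cover only the spread between the arrays, part of which may be technical. Rapamycin was compared with control in limma 3.58.1 (R 4.3.3), group as the only term, eBayes with a mean-variance trend, two-sided, Benjamini-Hochberg over all genes tested, called at 0.05. The fit had 2 residual degrees of freedom and a prior of 7.27. An exact permutation test of 2 against 2 arrays cannot go below p = 0.333 and was not used. The code was tested on simulated data.

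The members and gene lists were chosen with earlier results of these data known. Named are the 10 genes, each list's called genes and 3 largest differences, the 3 nearest genes of each called member, and PIM2. EIF2AK4, PPP1R15B, CEBPB and CEBPG were added after their values were seen. Promoter windows are from RefSeq (GRCh38.p14), found for all 10 genes, 18 windows in all, and the motif matches cover every window of a gene.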

Additional observations from a re-analysis of the deposited data

How the results depend on the processing

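With all 4 arrays in use, only median centring and repeated quantile normalization could move the log2 fold changes of the 10 stress genes. Neither turned the direction of any of them. The other settings leave these values unchanged by construction, so they cannot test direction (ATF3 missed the filter at the 60th percentile). The count of calls among the stress genes stayed at 3 under 7 of the 9 alternative settings with all 4 arrays. It was 1 with no filter, where more genes share the adjustment, and 0 without the mean-variance trend. Taking the mean of a gene's probe sets left the counts of calls the same over all genes, among the stress genes and in each list. This setting could hardly differ, since 24244 probe sets had 1 symbol for 24241 genes, and each stress gene had 1 probe set. Over all genes the 187 calls became 60 with no filter, 17 without the trend, 317 with arrays centred on their medians and 321 with the replicate block. Over the pathway lists the 6 calls became 1, 0, 10 and 11 under these settings. With no filter 0 transporters, 0 enzymes, 0 bZIP partners and 1 gene of the ATF6 and XBP1 arm were called, and without the trend 0 in each of these lists. Centred arrays gave 2 transporters and 1 call each for the eIF2 list, the family relatives and the CHOP list. The replicate block gave 2 transporters, 2 enzymes and 1 call in each of those 3 lists, and protein-coding genes alone gave 1 in the eIF2 list. The shared replicate numbers do not pair the cultures in the labels, and the deviations of same-numbered arrays correlated at -0.03 across genes. The block left the 3 calls of the stress genes in place.

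With each array left out in turn, calls ranged from 76 to 1300 over all genes, from 1 to 3 among the stress genes and from 2 to 21 over the lists. By list they ranged from 0 to 2 for eIF2 control, 1 to 4 for bZIP partners, 0 to 1 for family relatives, 0 to 4 for transporters, 0 to 4 for enzymes, 0 to 1 for CHOP genes and 1 to 5 for the ATF6 and XBP1 arm. Log2 fold changes crossed 0 for ATF4 (-0.22 to 0.068), TRIB3 (-0.30 to 0.092), ATF3 (-0.041 to 0.29) and ERO1B (-0.37 to 0.034). The cause of these shifts was not tested.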
